A study of Homo sapiens with 12 samples.

Results

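The genes of the tumour necrosis factor (TNF) ligand and receptor superfamily were followed in Huh7 cells, a human hepatocellular carcinoma line, after treatment with graphene oxide (GO) and its drug conjugates. Members were every gene of the count table whose symbol begins with TNFSF or TNFRSF and a digit, which gave 33 of 63677 genes, 21 of them receptors and 12 ligands. Of these, 21 reached 10 counts in 3 or more samples and were tested, and 12 stayed below that filter. The 12 RNA samples, all of the same cell line, fall into 4 groups of 3. Untreated cells received medium alone, and the other groups received GO (400 µg/mL), GO conjugated with the ginsenoside Rg3 and named GO-Rg3 (400 µg/mL), or that conjugate loaded with doxorubicin and named GO-Rg3-DOX (100 µg/mL), each for 6 h. GO-Rg3-DOX was thus given at a lower dose than the other conjugates, and its values are set beside theirs without a direct test. Cells treated with free doxorubicin were not analysed here.

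The ligands of this superfamily are mostly trimeric membrane proteins that can be shed, and each engages 1 or more receptors. Death receptors carry a cytoplasmic death domain through which adaptors such as FADD and TRADD assemble caspase-activating or NF-kappaB-activating complexes. Decoy receptors bind the same ligands without passing on a full death signal, and receptors without a death domain recruit TRAF proteins and feed mainly into NF-kappaB and MAP kinase signalling. In liver cells, TNF and the TRAIL ligand (TNFSF10) are among the superfamily ligands known for control of cell survival.

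Promoter sequence is shown for 4 members, the 2 called higher after GO (TNFRSF11A and TNFRSF14) and the largest fall and largest rise after GO-Rg3-DOX among members with at least 10 counts in every sample (TNFRSF1A and TNFSF9). Each run holds the 250 bases before the RefSeq start site, read 5′ to 3′ on the gene's strand, with coordinates on GRCh38.p14. Capitals mark matches, on either strand, to the SP1 element GGGCGG, the AP-1 element TGANTCA, the core promoter element TATAAA or the NF-kappaB consensus.
TNFRSF11A, chr18:62325060-62325309, plus strand: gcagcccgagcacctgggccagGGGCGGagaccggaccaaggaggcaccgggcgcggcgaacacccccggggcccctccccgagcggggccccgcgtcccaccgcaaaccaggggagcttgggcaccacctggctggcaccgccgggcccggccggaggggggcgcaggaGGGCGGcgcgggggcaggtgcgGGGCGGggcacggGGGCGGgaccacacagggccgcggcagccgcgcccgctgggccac
TNFRSF14, chr1:2556121-2556370, plus strand: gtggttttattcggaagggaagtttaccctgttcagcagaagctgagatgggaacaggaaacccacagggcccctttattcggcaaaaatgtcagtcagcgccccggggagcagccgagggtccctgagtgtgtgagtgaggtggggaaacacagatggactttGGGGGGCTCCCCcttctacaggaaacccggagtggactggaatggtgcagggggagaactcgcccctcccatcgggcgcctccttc
TNFRSF1A, chr12:6342077-6342326, minus strand: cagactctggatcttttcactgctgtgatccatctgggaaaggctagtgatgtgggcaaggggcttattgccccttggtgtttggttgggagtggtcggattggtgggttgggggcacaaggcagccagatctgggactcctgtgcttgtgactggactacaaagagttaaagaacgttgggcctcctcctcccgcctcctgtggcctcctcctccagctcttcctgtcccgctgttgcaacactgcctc
TNFSF9, chr19:6530776-6531025, plus strand: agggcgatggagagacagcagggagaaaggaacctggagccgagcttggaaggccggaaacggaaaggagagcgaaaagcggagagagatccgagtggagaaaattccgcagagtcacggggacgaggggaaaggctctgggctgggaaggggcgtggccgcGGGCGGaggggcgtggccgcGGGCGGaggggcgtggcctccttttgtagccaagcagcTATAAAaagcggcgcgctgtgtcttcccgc
The windows were searched from 250 bases before to 50 bases after the start, and matches of 1 motif may overlap. TNFRSF11A held 4 GGGCGG matches in a window of 82.3% GC, TNFSF9 held 2 such matches and a TATAAA, TNFRSF14 held 3 overlapping NF-kappaB consensus matches that form 1 block, and TNFRSF1A held no match to any of the motifs. Among 35116 RefSeq promoter windows of that length, 45% held GGGCGG, 7.71% TGANTCA, 11.5% TATAAA and 11.3% the NF-kappaB consensus, so these matches are common and are given as a description only. Median GC over those windows was 58.7%, against 55.7% for TNFRSF1A, 60.3% for TNFRSF14 and 63.3% for TNFSF9.

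Libraries held 27802871 to 38877420 counts. Levels are given as CPM, the count scaled to a common library size by the TMM method, for which 3 counts, the smallest number taken as detection, stood for 0.0707 to 0.124 CPM. Mitochondrial genes took 5.31% to 6.28% of counts in untreated cells, 6.89% to 7.42% after GO-Rg3, 12.1% to 24.1% after GO and 12.8% to 19.4% after GO-Rg3-DOX, with GO replicate 1 highest. Scaling by library totals alone in place of TMM moved the median change over all genes (log2) to -0.11 for GO, -0.47 for GO-Rg3-DOX and 0.12 for GO-Rg3 against GO. Hepatocyte-lineage markers (ALB, AFP, APOA1, APOB, TTR, SERPINA1 and FGB) summed to 12700 to 32800 CPM in every sample. Leukocyte markers summed to 113 to 162 CPM, almost all from LYZ and CD14, while PTPRC had 0 to 2 counts and MS4A1 none in any sample. Endothelial markers summed to at most 0.7 CPM, with PECAM1 at 0 in every sample. CDH5, the 1 of 3 that passed the count filter, had a mean of 0.293 CPM in untreated cells and 0.488 after GO-Rg3-DOX.

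In untreated cells the superfamily was carried by a few receptors. Per kilobase of exon, TNFRSF12A (42.1 ± 1.9 CPM per kb, SD, n = 3) and TNFRSF21 (40 ± 0.379) were highest and overlapped between samples, followed by TNFRSF10D (32.6 ± 1.63), TNFRSF10B (27.5 ± 0.149), TNFRSF1A (22.2 ± 1.09) and TNFRSF11B (19.8 ± 0.267), whose samples did not overlap those of their neighbours in the order. TNFRSF19 stood lower at 5.49 ± 0.233 CPM per kb. The highest ligands were TNFSF4 (3.2 ± 0.147 CPM per kb) and TNFSF9 (3.04 ± 0.225), which overlapped, ahead of TNFRSF10A (1.76 ± 0.123) and TNFRSF11A (1.05 ± 0.0171). The other 10 tested members lay at or below 0.479 CPM per kb. Within them, TNFRSF25 overlapped TNFSF10, each member from TNFRSF10C through TNFRSF9, TNFSF15 and TNFSF13 to TNFSF13B overlapped the next, and so did TNFRSF14 and TNFRSF13C.

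**Figure D1:**
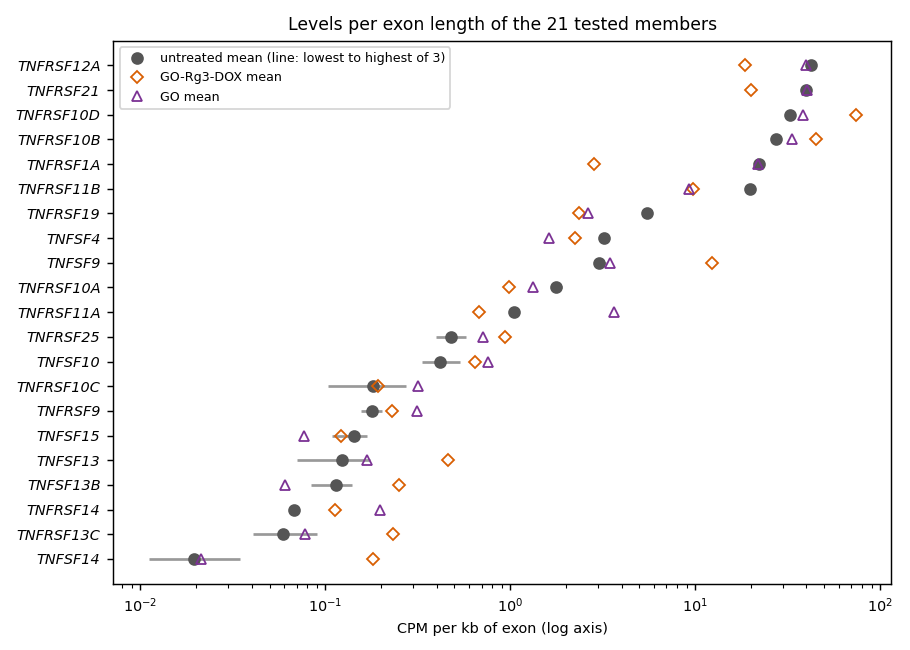
Mean level per kilobase of exon (horizontal log axis, CPM per kb) of the 21 tested members, ordered from the highest to the lowest in untreated cells. Filled circles are untreated means with a line from the lowest to the highest of 3 samples, triangles are GO means and diamonds are GO-Rg3-DOX means. TNFRSF12A leads at 42.1 CPM per kb in untreated cells and TNFRSF10D leads at 74.0 after GO-Rg3-DOX.

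Each treatment was compared with untreated cells, and GO-Rg3 with GO at the same dose. GO-Rg3-DOX was tested only against untreated cells, so no comparison isolated the drug load. The paper reports larger flakes and a weaker negative charge for GO-Rg3 than for GO. The ginsenoside and the form of the carrier thus cannot be told apart. Members are said to have risen or fallen at an adjusted p below 0.01 (the quasi-likelihood test of edgeR, adjusted by Benjamini-Hochberg over all 17092 genes tested), and are said to be called where the absolute log2 fold change was also above 1. All adjusted p-values below come from that fit. In RNA from whole cultures, fewer cells of a kind and less RNA per cell cannot be told apart.

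After GO, TNFRSF11A and TNFRSF14 rose and were called, TNFRSF11B and TNFRSF19 fell and were called, and TNFSF4 fell by a smaller fold. The 2 members called higher stood against 3.84% of all genes, and the 2 called lower against 2.62%. With no fold minimum the counts were 2 higher and 3 lower of 21, against 12.1% and 15.4% of all genes, and DESeq2 at the same adjusted p gave 5 higher, adding TNFRSF9, TNFRSF10B and TNFSF10, and 3 lower. The median log2 fold change of the tested members was 0.17, beside 0.01 over all genes. In the GO samples hepatocyte-lineage markers summed to 12700 to 15700 CPM against 21000 to 21200 CPM in untreated cells, with 2 of 7 lower (ALB and AFP). Their part in the members' changes, and that of the higher mitochondrial share, was not tested.

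After GO-Rg3, 0 members rose and 0 fell by edgeR's quasi-likelihood test. At an unadjusted p below 0.05, 1 was higher (TNFRSF11A) and 1 lower (TNFSF4), and DESeq2 gave 0 in either direction at an adjusted p below 0.01. Few genes of any kind passed in that comparison, 0.0117% called higher and 0.0468% called lower, or 0.0585% and 0.105% with no fold minimum. The members' median was -0.06, and that of all genes 0.00.

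After GO-Rg3-DOX, 8 members rose and 7 fell, with 6 called higher (TNFSF14, TNFSF9, TNFRSF13C, TNFSF13, TNFRSF10D and TNFSF13B) and 4 called lower (TNFRSF1A, TNFRSF19, TNFRSF12A and TNFRSF11B). Change was common in that comparison: 12.6% of all genes were called higher and 18.2% lower, or 25.5% and 30.5% with no fold minimum. The members' shares were 28.6% called higher and 19% called lower, so the share lower lay near the background. With library totals alone, 4 were called higher and 7 lower. TNFSF14 passed the count filter only through its GO-Rg3-DOX samples and so had to differ. It is part of the 6 called higher and of the 28.6%. The members' median log2 fold change was 0.37, beside -0.06 over all genes. In the same samples 6 of 7 hepatocyte-lineage markers, 3 of 3 fibroblast markers and 1 of 2 tested leukocyte markers (CD14) also rose, the first group summing to 27600 to 32800 CPM and the fibroblast markers to 9.06 to 11.4 CPM against 2.92 to 3.93 CPM in untreated cells. CD14 had 2.88, 3.45 and 3.51 CPM after GO-Rg3-DOX against 1.56, 1.12 and 1.08 CPM in untreated cells, and PTPRC stayed at 0 to 2 counts. Their part in the members' changes, and that of the mitochondrial share, was not tested.

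GO-Rg3 differed from GO in 5 members. TNFRSF11B and TNFRSF19 were called higher after GO-Rg3 than after GO, and TNFRSF14, TNFRSF11A and TNFSF10 were called lower. These were 2 of 21 against 0.702% of all genes and 3 of 21 against 2.07%, and the same counts with no fold minimum stood against 7.33% and 6.25%. The members' median was -0.16, beside -0.02 over all genes. That comparison shares the GO samples with GO against untreated cells.

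**Figure D2:**
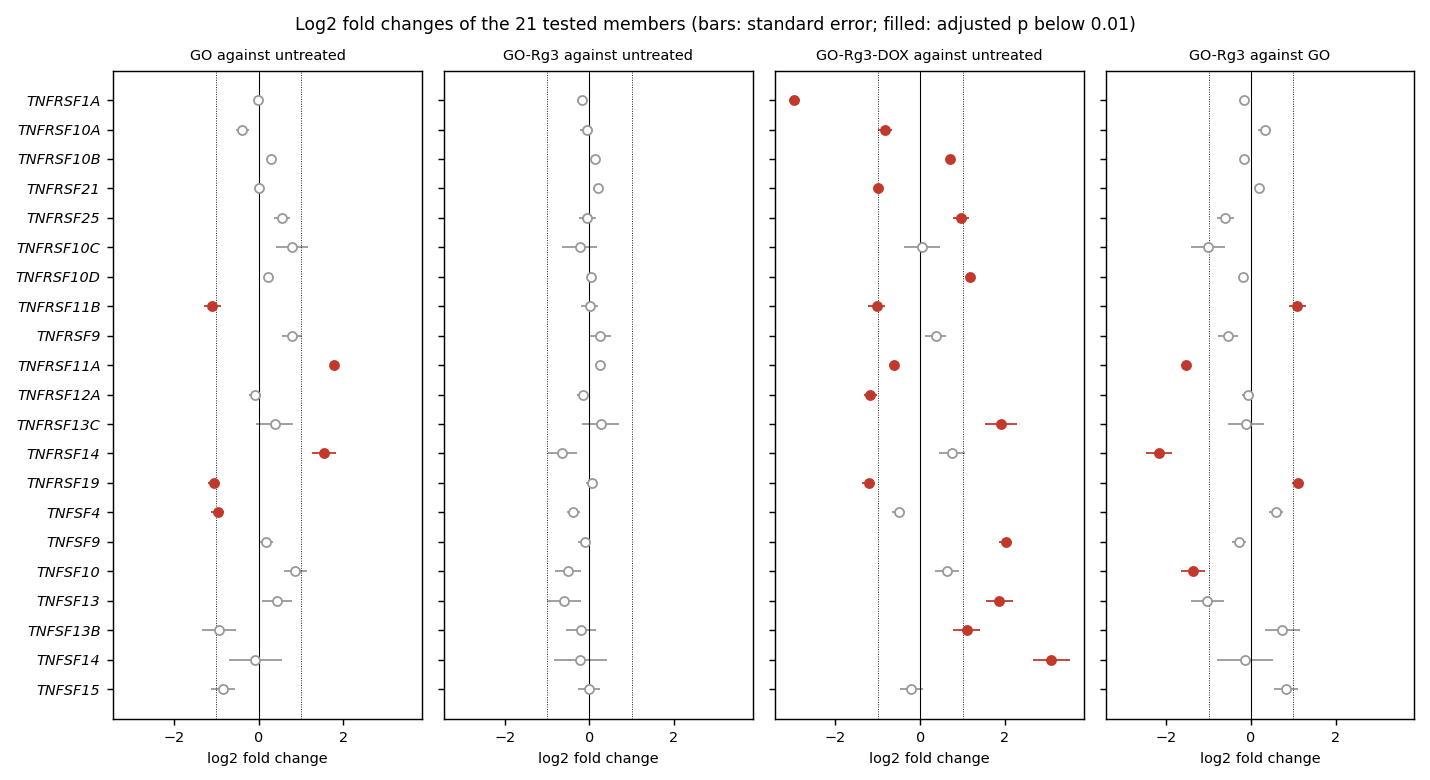
Log2 fold change (horizontal axis) of the 21 tested members, grouped from top to bottom as death receptors, decoys, receptors without a death domain and ligands, in 4 comparisons. Bars are standard errors, filled points have an adjusted p below 0.01 by edgeR's quasi-likelihood test, and dotted lines mark a log2 fold change of 1 in either direction. TNFRSF1A lies farthest to the left after GO-Rg3-DOX at -2.97, and no point is filled for GO-Rg3 against untreated cells.

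The 5 death receptors were all tested, and none rose or fell after GO or GO-Rg3 by edgeR (3 and 0 at an unadjusted p below 0.05, and 1 and 0 by DESeq2), whereas 3 fell and 2 rose after GO-Rg3-DOX, where 30.5% of all genes fell and 25.5% rose. TNFRSF1A, the main receptor of soluble TNF (chr12:6437923-6451280 on GRCh37, minus strand), fell most. Its CPM in replicates 1 to 3 was 96.6, 88.3 and 95.6 in untreated cells, 102.6, 83.9 and 89.4 after GO, 94.3, 69.1 and 83.1 after GO-Rg3, and 12.7, 11.5 and 11.4 after GO-Rg3-DOX. The first 3 groups overlapped and the GO-Rg3-DOX samples lay far below all of them, a 7.86-fold lower mean (log2 fold change -2.97 ± 0.13 SE, edgeR adjusted p = 1.1e-10).

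TNFRSF21, also known as death receptor 6, had 145, 143 and 143 CPM in untreated cells, 151, 139 and 145 after GO, 177, 155 and 161 after GO-Rg3, and 81.5, 65.1 and 70.2 after GO-Rg3-DOX. The GO-Rg3-DOX samples lay below every other sample, with a fall just short of the fold minimum (log2 fold change -0.99 ± 0.10 SE, edgeR adjusted p = 3.7e-07). TNFRSF25, the receptor of TNFSF15, was low, at 1.96, 1.69 and 2.47 CPM in untreated cells and 3.58, 4.53 and 3.89 after GO-Rg3-DOX. Its GO-Rg3-DOX samples lay above the untreated ones (log2 fold change 0.96 ± 0.19, edgeR adjusted p = 0.00044), but with library totals alone the adjusted p was 0.023. After GO it had 3.64, 2.57 and 2.91 CPM and after GO-Rg3 2.38, 1.64 and 1.90 CPM, neither GO against untreated cells (log2 fold change 0.55 ± 0.20, edgeR adjusted p = 0.033) nor GO-Rg3 against GO (-0.60 ± 0.20, edgeR adjusted p = 0.033) passing. TNFRSF25 shares 383 exonic bases with ESPN on the opposite strand, and whether the counting used the strand is not given in the sources used here.

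The 2 signalling receptors of TRAIL moved in opposite directions after GO-Rg3-DOX. TNFRSF10B (death receptor 5) had 139, 138 and 137 CPM in untreated cells, 162, 172 and 171 after GO, 151, 156 and 146 after GO-Rg3, and 200, 224 and 252 after GO-Rg3-DOX. The treated samples of every group lay above the untreated ones, but only GO-Rg3-DOX passed (log2 fold change 0.71 ± 0.09, edgeR adjusted p = 7.1e-06), GO reaching a log2 fold change of 0.29 ± 0.09 with an adjusted p of 0.021. With library totals alone the GO-Rg3-DOX change was 0.30 with an adjusted p of 0.056. TNFRSF10A (death receptor 4) was the scarcer of the pair and fell, from 4.89, 5.56 and 4.99 CPM in untreated cells to 2.93, 2.84 and 2.90 after GO-Rg3-DOX (log2 fold change -0.83 ± 0.16, edgeR adjusted p = 0.00036). After GO it had 2.90, 4.39 and 4.44 CPM and after GO-Rg3 4.54, 5.46 and 4.81, and GO replicate 1 was thus as low as the GO-Rg3-DOX samples (GO: log2 fold change -0.38 ± 0.16, edgeR adjusted p = 0.061). TNFRSF10B shares 377 exonic bases with RHOBTB2 on the opposite strand, and TNFRSF10A shares 224 and 266 with 2 antisense transcripts, so their counts could hold reads of those genes.

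Among the 4 decoy receptors, 3 were tested, and they did not move together. TNFRSF10D, a TRAIL decoy with a truncated death domain, had 121, 110 and 114 CPM in untreated cells, 125.9, 144 and 135 after GO, 120, 119.4 and 117.3 after GO-Rg3, and 253, 254 and 278 after GO-Rg3-DOX. The GO-Rg3-DOX samples stood clear above all the others (2.27-fold, log2 fold change 1.18 ± 0.09, edgeR adjusted p = 1.9e-08). With library totals alone that change was 0.77, below the fold minimum but still past the test (adjusted p = 5.4e-05). After GO its samples lay above the untreated ones by 0.23 ± 0.09 on the log2 scale, which did not pass (edgeR adjusted p = 0.042). TNFRSF10C, the TRAIL decoy held by a lipid anchor, had 5 to 24 counts in any sample (0.160 to 0.642 CPM) and did not pass in any comparison, its lowest adjusted p being 0.066 for GO-Rg3 against GO (log2 fold change -1.01 ± 0.39). TNFRSF6B, a soluble decoy of FAS ligand, TNFSF14 and TNFSF15, had no count in any sample, but all 1140 of its exonic bases lie inside RTEL1-TNFRSF6B on the same strand, so its level cannot be read from these counts.

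The 4 TRAIL receptor genes form a cluster on chromosome 8 (22877646 to 23082615 on GRCh37), and their make-up was compared per length. Their sum was 62 ± 1.72 CPM per kb in untreated cells, 73.5 ± 3.99 with GO, 65.7 ± 1.36 with GO-Rg3 and 120 ± 8.86 with GO-Rg3-DOX (SD, n = 3). TNFRSF10D made up 52.5% ± 1.19 of that sum in untreated cells and 61.7% ± 1.54 after GO-Rg3-DOX, while TNFRSF10B went from 44.4% ± 1.06 to 37.4% ± 1.68 and TNFRSF10A from 2.84% ± 0.267 to 0.824% ± 0.0622. The ratio of TNFRSF10D to TNFRSF10B counts was 0.834 ± 0.0388 in untreated cells, 0.803 ± 0.03 with GO, 0.788 ± 0.0177 with GO-Rg3 and 1.17 ± 0.0834 with GO-Rg3-DOX, where every sample (1.1 to 1.26) lay above every untreated one (0.797 to 0.875). These ratios do not depend on library scaling. In an exact two-sided permutation test each of these GO-Rg3-DOX differences gave p = 0.1, the smallest that 3 samples against 3 allow, so that test could not pass 0.05.

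**Figure D3:**
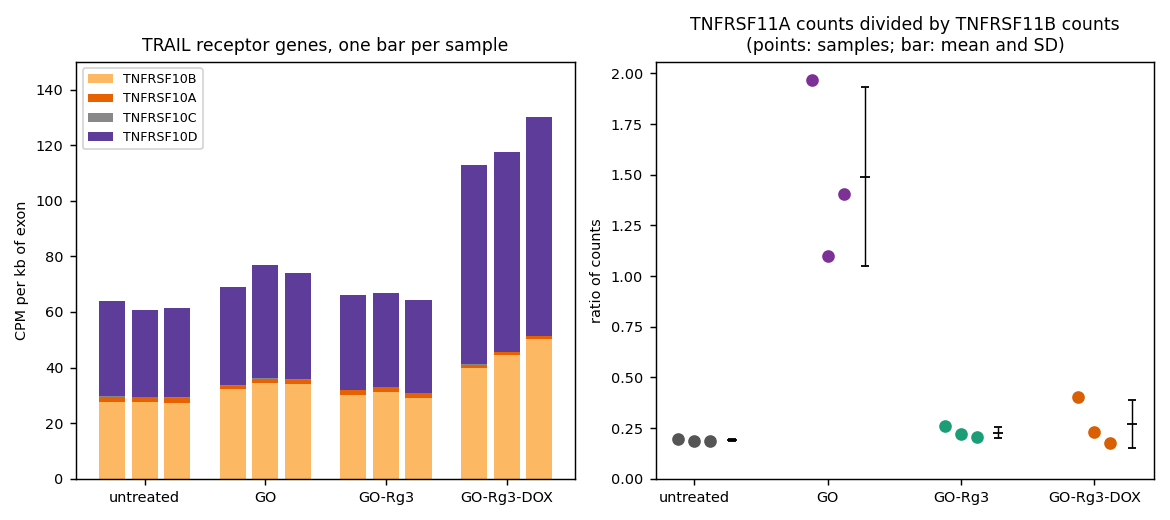
Left, the level per kilobase of exon (CPM per kb) of the 4 TRAIL receptor genes stacked in 1 bar for each of the 12 samples. Right, TNFRSF11A counts divided by TNFRSF11B counts, with points for samples and the mean and SD of 3. The GO-Rg3-DOX bars are tallest, with sums from 113 to 130 CPM per kb, and the GO ratios lie between 1.1 and 1.97.

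TNFRSF11B (osteoprotegerin), a soluble decoy of the RANK ligand that also binds TRAIL, fell after GO and after GO-Rg3-DOX. It had 49.3, 49.3 and 50.5 CPM in untreated cells, 16.5, 29.9 and 23.3 after GO, 41.9, 54.7 and 53.0 after GO-Rg3, and 17.2, 26.9 and 29.1 after GO-Rg3-DOX. The GO and GO-Rg3-DOX samples all lay below the untreated and GO-Rg3 samples, and replicate 1 was lowest in both. The log2 fold change was -1.09 ± 0.20 after GO (edgeR adjusted p = 0.00058), -1.03 ± 0.20 after GO-Rg3-DOX (edgeR adjusted p = 0.00033) and 1.10 ± 0.20 for GO-Rg3 against GO (edgeR adjusted p = 0.0013). Without GO replicate 1, whose mitochondrial share was highest, the GO change was -0.90 and GO-Rg3 against GO 0.91, both past the test but below the fold minimum. Leaving out any 1 sample gave a GO-Rg3-DOX change from -1.15 to -0.81, past the test each time but not always past the fold minimum. With an offset for GC content the changes were -0.84 after GO and -0.54 after GO-Rg3-DOX.

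TNFRSF11A (RANK), the signalling receptor of the same ligand (chr18:59992520-60058521 on GRCh37, plus strand), showed the largest rise after GO among the members. Its CPM was 9.60, 9.30 and 9.40 in untreated cells, 32.5, 32.8 and 32.7 after GO, 10.8, 12.02 and 10.9 after GO-Rg3, and 6.96, 6.25 and 5.15 after GO-Rg3-DOX. The GO samples were tightly grouped at 3.46 times the untreated mean (log2 fold change 1.79 ± 0.11, edgeR adjusted p = 4.9e-08), and GO-Rg3 samples were lower than GO samples by -1.54 ± 0.11 (edgeR adjusted p = 3.6e-07). After GO-Rg3-DOX it fell (log2 fold change -0.63 ± 0.12, edgeR adjusted p = 0.00024). Leaving out any 1 sample kept the GO change between 1.78 and 1.80. Per sample, the ratio of TNFRSF11A to TNFRSF11B counts was 0.19 ± 0.00437 in untreated cells, 1.49 ± 0.441 with GO, 0.228 ± 0.0277 with GO-Rg3 and 0.272 ± 0.119 with GO-Rg3-DOX. GO ratios did not overlap those of any other group (exact two-sided permutation p = 0.1 against untreated cells, the smallest possible). The ligand TNFSF11 had at most 3 counts in any sample.

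Of the 12 receptors without a death domain, 6 were tested. TNFRSF14 (HVEM), a receptor of TNFSF14 but not its only one, rested on few counts. It had 17, 13 and 17 in untreated cells, 27, 42 and 53 after GO, 11, 5 and 13 after GO-Rg3 and 12, 26 and 18 after GO-Rg3-DOX. In CPM these were 0.450, 0.416 and 0.400 in untreated cells, 1.06, 1.12 and 1.50 after GO, 0.297, 0.161 and 0.335 after GO-Rg3, and 0.494, 0.934 and 0.686 after GO-Rg3-DOX. GO samples were highest and GO-Rg3 samples lowest, with no overlap with untreated cells (GO: log2 fold change 1.54 ± 0.28, edgeR adjusted p = 0.0006; GO-Rg3 against GO: -2.18 ± 0.31, edgeR adjusted p = 0.00021). After GO-Rg3-DOX its log2 fold change of 0.75 ± 0.31 did not pass (edgeR adjusted p = 0.046). It shares 826 exonic bases with the antisense gene TNFRSF14-AS1.

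TNFRSF19, a receptor of ectoderm and nervous tissue with no agreed ligand, followed TNFRSF11B in pattern, at 29.2, 28.1 and 26.8 CPM in untreated cells, 11.01, 16.0 and 13.6 after GO, 26.5, 31.1 and 30.0 after GO-Rg3, and 9.85, 12.3 and 13.9 after GO-Rg3-DOX. Its GO and GO-Rg3-DOX samples all lay below the other groups, with log2 fold changes of -1.05 ± 0.14 (edgeR adjusted p = 6.6e-05) and -1.22 ± 0.15 (edgeR adjusted p = 2.9e-06). With the GC content offset TNFRSF19 was no longer called after GO. GO-Rg3 was higher than GO by 1.10 ± 0.14 (edgeR adjusted p = 0.00011), and without GO replicate 1 the GO change was -0.92 and that difference 0.98. TNFRSF12A (Fn14), the TNFSF12 receptor, which shares 40 exonic bases with CLDN6 on the opposite strand, fell after GO-Rg3-DOX, from 77.8, 71.9 and 77.8 CPM to 32.8, 35.7 and 32.03 (log2 fold change -1.18 ± 0.15, edgeR adjusted p = 5.5e-06), while GO gave 86.8, 63.8 and 65.0 and GO-Rg3 80.7, 52.5 and 72.5, both overlapping untreated cells. TNFRSF13C, the BAFF receptor, had 7, 5 and 15 counts in untreated cells and 22, 36 and 14 after GO-Rg3-DOX, or 0.233 ± 0.105 and 0.911 ± 0.38 CPM (log2 fold change 1.92 ± 0.38, edgeR adjusted p = 0.00039). TNFRSF9 (4-1BB) had 1.30, 0.991 and 1.11 CPM in untreated cells and 2.43, 1.93 and 1.61 after GO, which did not pass (log2 fold change 0.79 ± 0.24, edgeR adjusted p = 0.015).

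**Figure D4:**
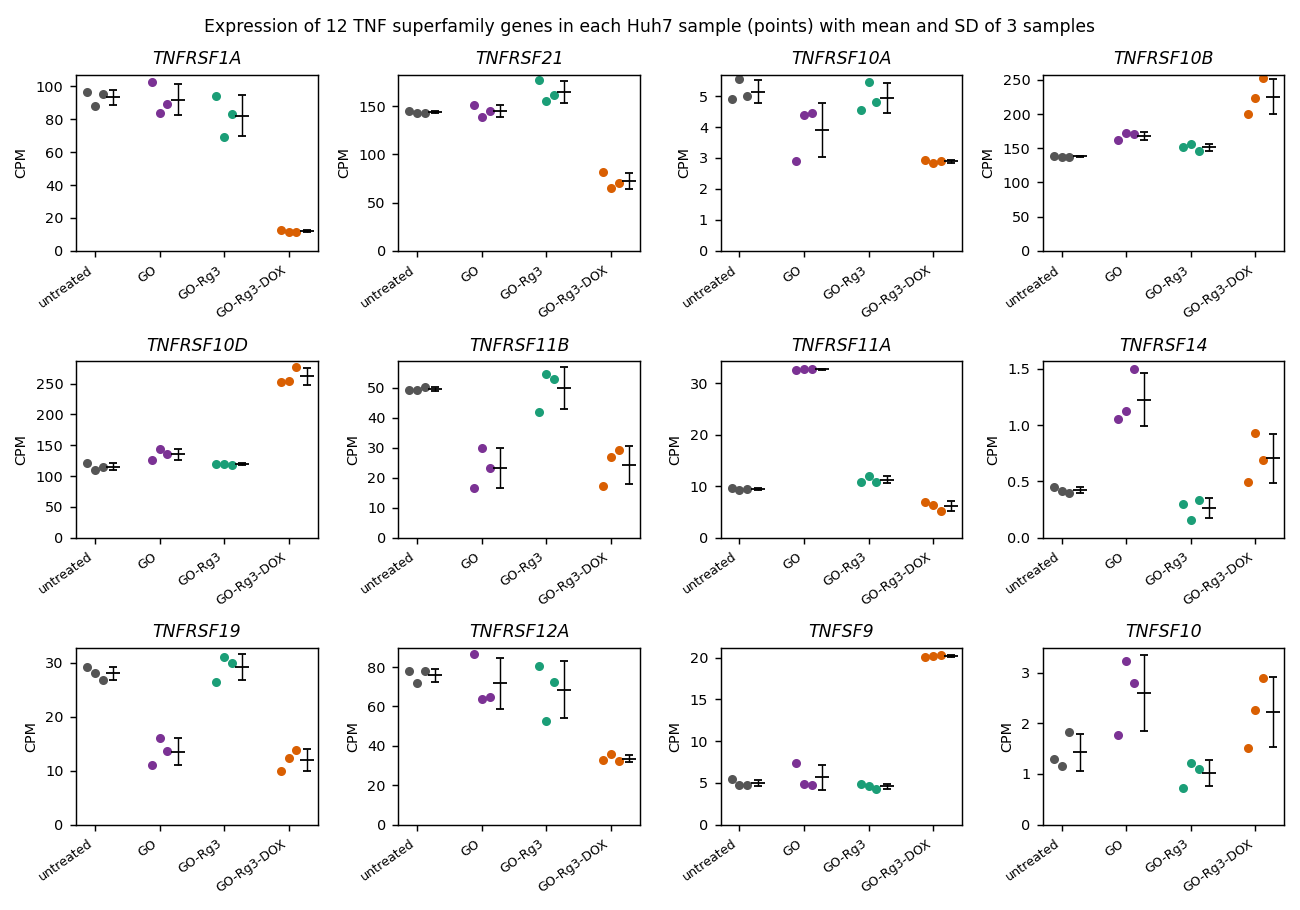
CPM (vertical axes, each from 0) of 12 members in each of the 12 samples, with coloured points for samples and black marks for the mean and SD of 3. TNFRSF1A falls to about 12 CPM only in the GO-Rg3-DOX samples, TNFRSF11A is near 32.7 CPM only in the GO samples, and TNFSF9 stands near 20 CPM only in the GO-Rg3-DOX samples.

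Among the 12 ligands, 7 were tested. After GO-Rg3-DOX 4 of them rose and 0 fell by edgeR (1 lower at an unadjusted p below 0.05 and 0 by DESeq2), against 25.5% of all genes that rose and 30.5% that fell, and after GO 1 fell. The 4 include TNFSF14, whose place among the tested genes rests on those samples alone. TNFSF9 (4-1BB ligand, chr19:6531037-6535935 on GRCh37, plus strand) had 5.40, 4.76 and 4.76 CPM in untreated cells, 7.40, 4.84 and 4.75 after GO, 4.89, 4.63 and 4.30 after GO-Rg3, and 20.1, 20.2 and 20.3 after GO-Rg3-DOX. The GO-Rg3-DOX samples lay within 20.1 to 20.3 CPM, 4.06 times the untreated mean (log2 fold change 2.02 ± 0.15, edgeR adjusted p = 2.2e-08). Its receptor TNFRSF9 had 1.11, 1.29 and 1.98 CPM in the same samples, overlapping untreated cells.

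The other 3 ligands that rose were scarce. TNFSF13 (APRIL) had 15, 5 and 12 counts in untreated cells and 29, 31 and 22 after GO-Rg3-DOX (log2 fold change 1.86 ± 0.32, edgeR adjusted p = 9.5e-05), and 1263 of its exonic bases also belong to the read-through gene TNFSF12-TNFSF13, so reads of the 2 genes could not be fully told apart. After GO it had 9, 15 and 14 counts and after GO-Rg3 5, 5 and 10, a difference that did not pass (log2 fold change -1.03 ± 0.39, edgeR adjusted p = 0.061). TNFSF13B (BAFF) had 14, 8 and 18 counts in untreated cells and 19, 21 and 20 after GO-Rg3-DOX, or 0.350 ± 0.0859 and 0.767 ± 0.0145 CPM (log2 fold change 1.10 ± 0.32, edgeR adjusted p = 0.0074), and the call was lost when any 1 of the 6 samples was left out (adjusted p from 0.011 to 0.032) and with library totals alone (0.08). After GO it had 5, 3 and 10 counts (log2 fold change -0.94 ± 0.40, edgeR adjusted p = 0.071). TNFSF14 (LIGHT) had 2, 2 and 7 counts in untreated cells, 5, 2 and 2 after GO, 3 in each GO-Rg3 sample and 22, 28 and 18 after GO-Rg3-DOX (log2 fold change 3.10 ± 0.43). It passed the count filter only through its GO-Rg3-DOX samples, so it had to differ and its p-value is not given.

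TNFSF10 (TRAIL) differed between the 2 carriers given at the same dose. It had 1.30, 1.15 and 1.84 CPM in untreated cells, 1.76, 3.24 and 2.80 after GO, 0.730, 1.22 and 1.11 after GO-Rg3, and 1.52, 2.26 and 2.90 after GO-Rg3-DOX. GO-Rg3 samples all lay below GO samples (log2 fold change -1.38 ± 0.29, edgeR adjusted p = 0.0031), but leaving out GO replicate 2, GO replicate 3 or GO-Rg3 replicate 3 each raised the adjusted p to 0.013. Against untreated cells the GO samples overlapped and did not pass (log2 fold change 0.87 ± 0.27, edgeR adjusted p = 0.019), although without GO replicate 1 the change was 1.06 with an adjusted p of 0.0046. After GO-Rg3-DOX the log2 fold change was 0.63 ± 0.28, which did not pass (edgeR adjusted p = 0.061). TNFSF4 (OX40 ligand), 1 of the 2 most abundant ligands, fell after GO from 12.2, 12.5 and 13.3 CPM to 4.74, 7.89 and 6.65 (log2 fold change -0.97 ± 0.16, edgeR adjusted p = 0.00028), with 8.22, 11.3 and 9.65 after GO-Rg3 and 8.90, 9.06 and 8.81 after GO-Rg3-DOX. Neither GO-Rg3-DOX against untreated cells (-0.51 ± 0.16, edgeR adjusted p = 0.011) nor GO-Rg3 against GO (0.59 ± 0.16, edgeR adjusted p = 0.015) passed for it. TNFSF15 had 1.19, 1.31 and 0.848 CPM in untreated cells and 0.352, 0.642 and 0.792 after GO, which did not pass (log2 fold change -0.85 ± 0.29, edgeR adjusted p = 0.027). GO-Rg3 samples had 1.16, 1.25 and 0.875 CPM and did not pass against GO (0.83 ± 0.29, edgeR adjusted p = 0.044).

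The 12 members below the filter had at most 12 counts in any sample. TNFRSF6B, TNFRSF13B (TACI) and TNFSF12-TNFSF13 had none. TNFRSF1B, the other TNF receptor, was at 0 in 11 of 12 samples and had 3 counts in GO-Rg3-DOX replicate 3. TNFSF12 (TWEAK) had 5, 2 and 1 counts in untreated cells and 8, 9 and 12 after GO-Rg3-DOX, TNFRSF4 (OX40) had 1, 0 and 1 against 3, 5 and 11, and TNFRSF18 (GITR) had none outside GO-Rg3-DOX, where it had 6, 3 and 3. TNFRSF8, TNFSF8, TNFSF11, TNFSF18 and TNFRSF17 had at most 5 counts in any sample. The count filter left those genes out of the tests. With no such filter 8 members were called higher and 5 lower after GO-Rg3-DOX, against 6 and 4 with it. TNFRSF18, TNFRSF4 and TNFSF12 were then called higher (edgeR adjusted p = 0.0039, 0.0024 and 0.0048), TNFRSF21 was called lower and TNFSF13B lost its call. A count of 0 set an upper limit of 0.0707 to 0.124 CPM per library (3 counts, counting error only), except for TNFRSF6B and TNFSF12-TNFSF13, whose exonic bases are all shared with other genes and for which 0 sets no limit.

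Superfamily genes with other symbols numbered 15, of which 5 were tested (TNF, LTA, LTB, LTBR and RELT). After GO-Rg3-DOX 3 rose (TNF, LTA and LTB) and 0 fell by edgeR, against 25.5% of all genes that rose and 30.5% that fell. In the other comparisons 0 passed by edgeR. By the same test an unadjusted p below 0.05 was reached by 4 after GO, 2 after GO-Rg3 and 1 for GO-Rg3 against GO. By DESeq2, with no fold minimum, 1 passed at an adjusted p below 0.01 (RELT, after GO). TNF itself had 0.265, 0.480 and 0.306 CPM in untreated cells and 2.51, 2.30 and 2.52 after GO-Rg3-DOX (log2 fold change 2.82 ± 0.23, edgeR adjusted p = 5.3e-08), in the samples where its receptor TNFRSF1A was lowest. LTB rose by 1.57 ± 0.34 on the log2 scale (edgeR adjusted p = 0.00082). LTA had 0 counts in every untreated sample and 19, 25 and 20 after GO-Rg3-DOX, at least 9.94-fold higher against 3 counts per untreated library. With at most 2 counts in any GO or GO-Rg3 sample, LTA passed the filter only through its GO-Rg3-DOX samples and so had to differ. FAS had 2 to 9 counts in every sample and FASLG none, so that axis was not measurable at this depth.

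Of 16 adaptors and death signalling genes, all tested, 2 rose and 10 fell after GO-Rg3-DOX, with a median log2 fold change of -0.67, and 3 rose and 1 fell after GO. FADD, the adaptor that couples death receptors to caspases, went from 3.47, 3.16 and 4.19 CPM to 0.453, 0.611 and 0.839 (log2 fold change -2.50 ± 0.22, edgeR adjusted p = 1.3e-07). TRAF6 fell by 1.92 ± 0.19 and TRAF5 by 1.31 ± 0.25 on the log2 scale (edgeR adjusted p = 4.3e-07 and 0.00026). BIRC3, an inhibitor of apoptosis and NF-kappaB target, had 8.10, 8.44 and 6.81 CPM in untreated cells and 22.1, 27.98 and 25.6 after GO (log2 fold change 1.70 ± 0.12, edgeR adjusted p = 2e-07). It was also the only gene of the 16 to pass after GO-Rg3, at 14.9, 16.6 and 14.8 CPM (log2 fold change 0.99 ± 0.12, edgeR adjusted p = 0.0022), but not without any 1 of the untreated samples or without GO-Rg3 replicate 3 (adjusted p from 0.012 to 0.034). After GO-Rg3-DOX BIRC3 fell to 3.96, 3.95 and 4.19 CPM (log2 fold change -0.94 ± 0.13, edgeR adjusted p = 1.5e-05), but with the GC content offset the change was -0.31 with an adjusted p of 0.019.

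Of 19 genes of the NF-kappaB arm, all tested, 6 rose and 4 fell after GO, 1 rose after GO-Rg3, 4 rose and 6 fell after GO-Rg3-DOX, and 4 were higher and 3 lower after GO-Rg3 than after GO. NFKB2, a subunit of the non-canonical pathway, had 49.5, 46.0 and 44.7 CPM in untreated cells and 158, 110.9 and 119.5 after GO (log2 fold change 1.47 ± 0.16, edgeR adjusted p = 9.5e-06). CYLD, a deubiquitinase that restrains NF-kappaB, rose after GO-Rg3-DOX by 2.04 ± 0.16 (edgeR adjusted p = 2.8e-08), while the inhibitors NFKBIE and NFKBIA fell by 1.46 ± 0.21 and 1.16 ± 0.11 (edgeR adjusted p = 2.2e-05 and 1.8e-07). The 1 gene that rose after GO-Rg3 was TNFAIP3, named after its value was seen (log2 fold change 0.80 ± 0.12, edgeR adjusted p = 0.0083), and it no longer passed when any 1 of the 6 samples was left out (adjusted p from 0.016 to 0.079). Both lists hold genes that rose and genes that fell in the same comparison, and their counts stand beside backgrounds of 12.1% higher and 15.4% lower after GO and 25.5% and 30.5% after GO-Rg3-DOX. For GO-Rg3 the backgrounds were 0.0585% higher and 0.105% lower, and for GO-Rg3 against GO 7.33% and 6.25%.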

How the data were processed

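RNA of 12 Huh7 samples was analysed. Per the labels and the study's methods, the authors used a stranded mRNA kit, ran a public pipeline on GRCh37 and used featureCounts to count reads over genes. The deposited table holds raw counts, and version, annotation release and strand setting are not given in the sources used here. Libraries held 27802871 to 38877420 counts. Genes reaching 10 counts in 3 or more samples (17092) were scaled by TMM and tested with the quasi-likelihood test of edgeR 4.0.16 (R 4.3.3), all 12 samples in one model, with Benjamini-Hochberg adjustment over all genes tested. Calls needed an adjusted p below 0.01 together with a log2 fold change past 1 in size. Standard errors are the absolute log2 fold change divided by the square root of F.

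Groups came from the sample labels, which do not say whether replicates were separate cultures. The p-values thus set differences against the spread between these samples, which may be technical. Limits set by 3 counts cover counting error only, and reads carry no molecular identifiers. The SE and SD values include the spread between samples. Every member is named. Pathway genes with values, at most 4 per list, are those with the largest changes past an adjusted p of 0.01 after GO or GO-Rg3-DOX. TNFAIP3 was added as the only gene of its list that passed after GO-Rg3. A member's log2 fold change is given where its adjusted p was below 0.1, and levels alone otherwise. Members, lists and this narrowing were chosen with earlier results of these data known. Exon length, GC content and overlaps came from a GENCODE annotation lifted to GRCh37, and promoter sequences from RefSeq (GRCh38.p14). Of the members outside chromosome 8, 21 had a promoter entry, in 26 windows. Alternatives were other scalings and filters, DESeq2 1.42.0, a replicate block, a GC content offset, fewer samples and other thresholds. Tables used Python 3.11.15, pandas 2.3.3 and SciPy 1.17.1, and figures matplotlib 3.10.9.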

Additional observations from a re-analysis of the deposited data

How the results depend on the processing

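For 41 changes of members, 25 past an adjusted p of 0.01, 600 refits gave 560 with the same side of the threshold, 16 weaker, 24 stronger and 0 with the other sign. For 20 changes of pathway genes, 299 refits gave 273 the same, 26 weaker and 0 reversed. For the 43 pairs of member and comparison given as levels only, 60 of 629 refits had the other sign. Called members after GO went from 2 higher to 1 and from 2 lower to 1 at an adjusted p below 0.0001, to 1 higher with 10 counts in every sample, and to 0 lower with the GC content offset, with or without the replicate block. After GO-Rg3-DOX, 6 higher became 2 with 10 counts in every sample, and 4 lower became 7 with library totals alone (4 higher) or no fold minimum (8 higher) and 2 with the GC content offset, with or without the block. For GO-Rg3 against GO, 2 higher became 1 with the GC content offset (with or without the block) or only the 6 samples compared and 0 at an adjusted p below 0.0001, where 3 lower became 1. The filter of 10 counts in every sample left TNFRSF14, TNFSF14, TNFRSF13C, TNFSF13 and TNFSF13B untested, since each had samples below 10 counts. The cause of the other changes was not tested. Leaving out 1 sample gave 2 to 3 higher and 0 to 3 lower for GO, 0 and 0 for GO-Rg3, 4 to 6 higher and 4 lower after GO-Rg3-DOX, and 0 to 2 higher and 2 to 3 lower for GO-Rg3 against GO. The 0 lower and the 0 higher came without GO replicate 1, and the 4 higher without GO-Rg3-DOX replicate 2, when TNFSF14 fell below the count filter and TNFSF13B lost its call. Neither loss was particular to that replicate. TNFSF14 fell below the filter when any of the 3 GO-Rg3-DOX samples was left out, and TNFSF13B lost its call when any of the 6 samples was. TNFRSF25 changed by 0.851 to 1.128 over the 6 fits, all past an adjusted p of 0.01, so some fits called it higher. The 4 lower were not the same members in every such fit. TNFRSF11B changed by -1.154 to -0.813 and TNFRSF21 by -1.073 to -0.902 after GO-Rg3-DOX, all past an adjusted p of 0.01. GO-Rg3-DOX against untreated cells had 3 lower with DESeq2, RLE scaling or 10 counts in every sample.

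Same-numbered samples of different groups correlated in their deviations at a mean r of 0.092 (-0.024 to 0.253 over 18 pairs, 7 above 0.1). For samples with different numbers the mean r was -0.045 (-0.257 to 0.212 over 36 pairs, 1 above 0.1). Same-numbered samples were thus more alike on average, and the source of that likeness was not tested. The main fit did not treat the numbers as pairs. With the replicate block the called members were 2 higher and 2 lower for GO, 0 and 0 for GO-Rg3, 6 and 4 for GO-Rg3-DOX and 2 and 3 for GO-Rg3 against GO, the same counts as without it. Over 16622 genes, GC content correlated with the log2 fold change at a Spearman rho of 0.43 for GO, 0.2 for GO-Rg3, 0.36 for GO-Rg3-DOX and -0.43 for GO-Rg3 against GO. That is across genes, which are not independent replicates. With the GC content offset TNFSF13B changed by 1.69 and TNFRSF12A by -1.76 after GO-Rg3-DOX, and TNFSF10 passed with both treatments (1.10 for GO and 1.10 for GO-Rg3-DOX). Without untreated replicate 3 the TNFSF14 change was 3.82.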
